A study of Homo sapiens with 4 samples.

Results

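Protein-coding genes of the chromosome bands 20q13 and 17q23, which are gained in many breast cancers and breast cancer lines, were followed in BT-474 cells with and without recombinant neuropilin-1 (NRP-1). The genes were named by symbol, with earlier results of these data known, and matched to the deposited tables by NCBI Gene ID. The matching itself used no measured value, and all 10 were found among the 18882 genes listed. The 6 members on 20q13 were CSE1L, PTPN1, BCAS4, ZNF217, BCAS1 and PFDN4, and the 4 on 17q23 were PTRH2, VMP1, BCAS3 and TBX2. Copy number was not measured here, so the band of a gene is background and not a result.

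BT-474 is an established human breast cancer line that the labels class as luminal B-like. The 2 control libraries (replicates 1 and 2) came from BT-474 cells labelled wild-type, which carried no plasmid. The 2 BT-474 NRP-1 libraries (replicates 2 and 3) came from BT-474 cells stably transfected with NRP-1 cDNA in the plasmid pPTuner IRES2. These cells were taken as isolated colonies and selected with Geneticin. Both groups were grown in RPMI-1640 with serum. Whether the NRP-1 libraries were 1 clone or several is not stated, nor are the libraries said to be separate cultures, so the spread between them may be technical in part. Because no empty-vector library was part of these data, NRP-1 itself, plasmid, colony isolation and antibiotic selection cannot be told apart.

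Each library held 8243595 to 8448926 expected counts, the reads that RSEM assigned to genes. NRP1 had 7 and 8 expected counts in the controls and 103 and 62 in BT-474 NRP-1 (log2 fold change 3.38, SE 0.42, edgeR adjusted p = 0.0440), which was in the direction of the labels. Its adjusted p was 0.106 in edgeR without the filter on low counts and 0.121 and 0.112 in limma, so the call did not hold there. Levels are given in FPKM (fragments scaled to transcript length and sequencing depth, a level per length). NRP1 had 0.15 and 0.17 FPKM in the controls and 2.46 and 1.30 FPKM in BT-474 NRP-1. All were under the median of 4.99 FPKM over all listed genes. The epithelial markers EPCAM, KRT8, KRT18 and KRT19 had mean values of 151 to 1243 FPKM, and ERBB2 had 1301 FPKM. Of the other 3 luminal markers FOXA1 had 142.8 FPKM, while GATA3 (13.05 FPKM) and ESR1 (8.53 FPKM) were far lower. GATA3 had 184 and 186 expected counts in the controls and 688 and 289 in BT-474 NRP-1 (log2 fold change 1.34, adjusted p = 0.126 in edgeR and 0.00990 in DESeq2), and its part in the results below was not tested. The summed level of the 4 markers of other cell types (VIM, PTPRC, COL1A1 and PECAM1) was 39.4 to 41.0 FPKM in the controls and 37.1 to 52.3 FPKM in BT-474 NRP-1, with none of the 4 at 0. COL1A1 made up most of that sum in each library, with 35.20 and 34.97 FPKM in the controls and 30.13 and 26.83 FPKM in BT-474 NRP-1. Its log2 fold change was -0.34 (adjusted p = 0.177 in edgeR and 0.322 in DESeq2). VIM went the other way, with 3.89 and 2.69 FPKM in the controls and 20.58 and 8.10 FPKM in BT-474 NRP-1. Its log2 fold change was 2.08 (adjusted p = 0.0821 in edgeR and 0.000328 in DESeq2). The part of VIM and COL1A1 in the results below was not tested.

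In breast tumours, gain of a chromosome segment raises the number of copies of every gene on it, and genes of the segment whose product favours growth are thought to be the reason it is kept. ZNF217 is the best studied of the 20q13 genes and encodes a repressor that keeps breast epithelial cells dividing. The 17q23 segment holds the kinase gene RPS6KB1, the repressor gene TBX2 and, at the end of the VMP1 transcription unit, the gene of the oncogenic microRNA miR-21.

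Of the 10 members, 9 had a mean level of at least 10 FPKM, which 36.2% of all listed genes reached, and the median over the members was 88.9 FPKM against 4.99 FPKM over all listed genes. The median of the other 31 listed genes lying between CSE1L and PFDN4 was 11.5 FPKM, and that of the 13 listed genes between PTRH2 and TBX2 was 27.1 FPKM. The 30 listed genes on each side of these intervals had medians of 13.7 FPKM (20q13) and 12.8 FPKM (17q23). These medians are a description, since the members are well known genes and were not drawn from the intervals at random.

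**Figure D1:**
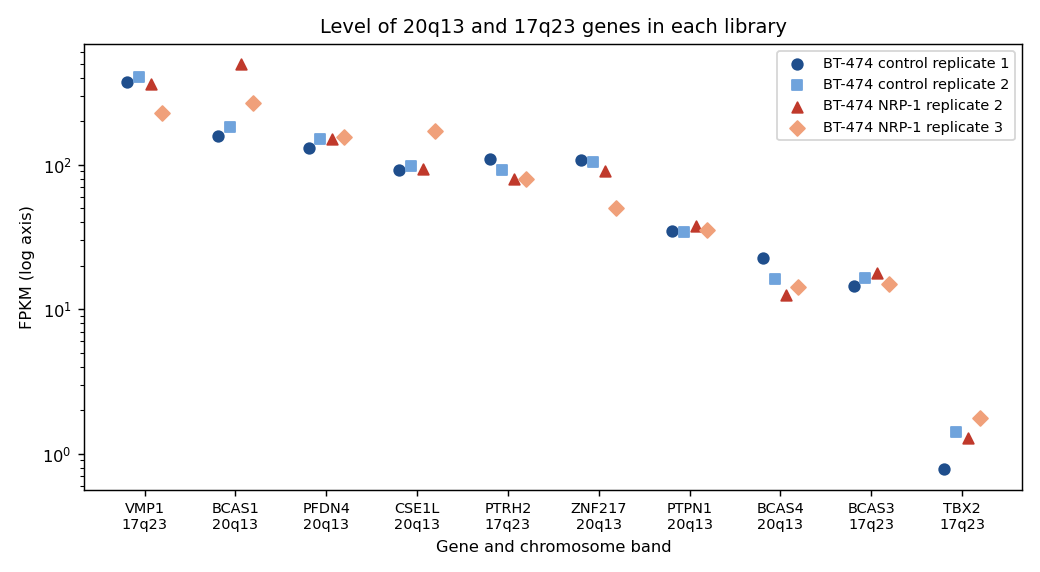
Level of each gene (FPKM, log axis) in the 2 BT-474 control libraries (circle and square) and the 2 BT-474 NRP-1 libraries (triangle and diamond), ordered by mean level. VMP1 and BCAS1 stand at the top and TBX2 at the bottom, and NRP-1 replicate 3 (diamond) stands apart from the other libraries for ZNF217, CSE1L and VMP1.

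In the controls the order of levels, in FPKM, began with VMP1 (388 ± 19.1, mean ± SD, n = 2), BCAS1 (168.7 ± 17.01) and PFDN4 (141 ± 13.8), whose ranges did not overlap. ZNF217 (106 ± 2.64), PTRH2 (100.1 ± 11.9) and CSE1L (94.7 ± 4.89) followed. Among these 3, the ranges of ZNF217 and PTRH2 overlapped, as did those of PTRH2 and CSE1L. PTPN1 (34.4 ± 0.255) was next, then BCAS4 (19.4 ± 4.72) and BCAS3 (15.4 ± 1.34), which overlapped, and last TBX2 (1.10 ± 0.445). Within a library, VMP1 ranked between places 148 and 249 of the genes listed above 0, whereas TBX2 ranked between 11978 and 13719. In BT-474 NRP-1 the first 2 places changed hands, BCAS1 having 380 ± 162 FPKM and VMP1 294 ± 91.5 FPKM, with overlapping ranges.

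No member passed an adjusted p of 0.05 between BT-474 NRP-1 and control in edgeR's quasi-likelihood test over 14298 genes, in which 156 genes, or 1.09%, did, 0.413% on the higher side in BT-474 NRP-1 and 0.678% on the lower. DESeq2 called 1 member, BCAS1, where it called 6.8% of the genes it gave an adjusted p. An unadjusted p under 0.05 was reached by 3 of 10 members (BCAS1, BCAS4 and PTRH2), against 22.9% of all tested genes. The libraries of the groups did not overlap, in read counts scaled to library depth with TMM factors (CPM), for 6 of 10 members, namely BCAS1 and PTPN1 on the higher side and ZNF217, BCAS4, PTRH2 and VMP1 on the lower. Over all tested genes this share was 56.2% (27.9% higher and 28.3% lower), so the members stood near the background. Their median log2 fold change was 0.06, with 6 above 0 and 4 below, beside 0.02 over all tested genes. In a bulk library, fewer cells that express a gene and less RNA of it per cell cannot be told apart. Permuting 4 libraries gives an exact two-sided p of 0.333 at best, so no permutation p is printed.

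**Figure D2:**
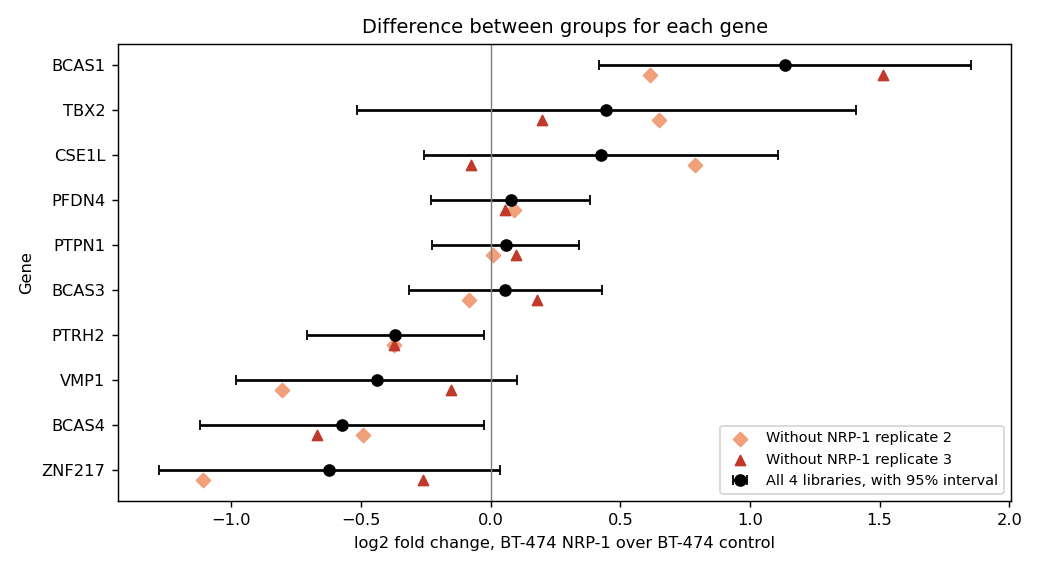
Log2 fold change of each gene, BT-474 NRP-1 over BT-474 control, with its 95% interval (black, all 4 libraries, edgeR) and the value after leaving out NRP-1 replicate 2 (diamond) or replicate 3 (triangle). BCAS1 lies highest at 1.14 and ZNF217 lowest at -0.62, and the value of CSE1L moves from 0.79 to -0.08 with the library left out.

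BCAS1 showed the largest difference of the 10 genes. It was first described as a breast carcinoma amplified sequence on 20q13 and is best known as a marker of oligodendrocytes that are starting to make myelin. BCAS1 had 4517 and 5249 expected counts in the controls and 14501 and 7832 in BT-474 NRP-1, or 157 and 181 FPKM against 495 and 265 FPKM. Both NRP-1 libraries were above both controls, and replicate 2 was well above replicate 3. The fitted level was 2.196-fold higher in BT-474 NRP-1 (log2 fold change 1.14, SE 0.29, 95% interval 0.42 to 1.85), which missed the threshold in edgeR (adjusted p = 0.0993) and passed it in DESeq2 (adjusted p = 0.00164). Adjusted p was 0.0949 to 0.189 under the other scalings, filters and limma fits tried. Leaving out NRP-1 replicate 2 gave a log2 fold change of 0.61, and leaving out replicate 3 gave 1.51. In rank, BCAS1 stood at 386 and 324 of the genes listed above 0 in the controls and at 101 and 214 in BT-474 NRP-1.

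ZNF217, the next listed gene to BCAS1 in chromosomal order, lay on the other side of 0. Its product is a zinc finger protein that recruits the CtBP, LSD1 and CoREST corepressors. The controls had 5062 and 4922 expected counts, and the NRP-1 libraries had 4329 and 2425, or 107 and 104 FPKM against 90.4 and 50.3 FPKM. The groups did not overlap, but the distance came mostly from NRP-1 replicate 3, as replicate 2 was close to the controls. The log2 fold change was -0.62 (SE 0.27, 95% interval -1.28 to 0.03, edgeR adjusted p = 0.238), with -0.26 when NRP-1 replicate 3 was left out and -1.11 when replicate 2 was. The FPKM of BCAS1 divided by that of ZNF217 was 1.46 and 1.74 in the controls and 5.47 and 5.28 in BT-474 NRP-1, so this ratio was alike in the NRP-1 libraries although each gene alone was not. The ratio was chosen after the values were seen and carries no test. RefSeq annotates antisense transcripts at ZNF217, BCAS1, BCAS3 and TBX2, whose reads cannot be told apart from the sense gene unless the counting used strand, which is not stated.

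ZNF217 is shown with the 250 bases before its start because it was the lowest of the members in fold change (RefSeq, GRCh38.p14, chr20:53593840-53594089, minus strand, written 5′ to 3′). Capitals mark GGGCGG, the GC box bound by SP1-type factors, on either strand. The stretch holds 3 such matches and is 72.4% G or C.
ZNF217 upstream: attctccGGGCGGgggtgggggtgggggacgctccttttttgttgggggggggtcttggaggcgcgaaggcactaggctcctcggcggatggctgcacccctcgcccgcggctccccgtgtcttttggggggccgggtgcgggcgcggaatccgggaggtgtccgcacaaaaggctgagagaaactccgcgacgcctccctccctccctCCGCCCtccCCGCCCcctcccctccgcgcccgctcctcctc
GGGCGG was found in 6 of the 9 RefSeq promoter windows that matched 8 members (BCAS4 has a pair, and BCAS1 and TBX2 had no entry), and in 45.0% of all 35116 RefSeq windows of 300 bases. CCAAT was found in 5 of the 9, against 34.6% of all windows, and TATAAA in 0 of the 9, against 11.5%. The windows of PTRH2 and VMP1 overlap, as do those of the BCAS4 pair, so the 9 are not separate stretches. Such matches are letters in a window and say nothing of which factor bound there.

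The corepressor genes that work with ZNF217 were described as a list. All 6 tested (CTBP1, CTBP2, KDM1A, RCOR1, HDAC1 and HDAC2) had a log2 fold change above 0, where 51.8% of all tested genes did. The 6 values lay between 0.13 and 0.33 with a median of 0.22. None was called by edgeR or DESeq2, 1 having an unadjusted edgeR p under 0.05, beside 22.9% of all tested genes. With NRP-1 replicate 3 left out the median was 0.077, and CTBP1 and KDM1A were below 0 (-0.015 and -0.017). With replicate 2 left out it was 0.29. HDAC1 had the highest level (mean 52.2 FPKM, log2 fold change 0.21), followed by CTBP1 (39.8 FPKM, 0.14).

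TBX2 was the only member with a low level. It encodes a T-box repressor of cell cycle inhibitor genes and has been linked to escape from senescence. TBX2 had 22 and 40 expected counts in the controls and 37 and 51 in BT-474 NRP-1, or 0.78 and 1.41 FPKM against 1.29 and 1.77 FPKM. The groups overlapped, and with so few reads the 95% interval of the log2 fold change of 0.45 ran from -0.52 to 1.41 (edgeR adjusted p = 0.543). Leaving out control replicate 1 gave 0.085 and control replicate 2 gave 0.93, and leaving out an NRP-1 library gave 0.65 (replicate 2) or 0.20 (replicate 3). Of 5 genes known to be repressed by TBX2 (CDKN1A, CDKN2A, NDRG1, CST6 and CDH1), 4 were tested, and 0 were called by edgeR or DESeq2, with 1 at an unadjusted p under 0.05 and a median log2 fold change of -0.28. It changed to 0.0064 when NRP-1 replicate 3 was left out and to -0.42 when replicate 2 was. The cell cycle inhibitor genes CDKN1A and CDKN2A, named after their values were seen, lay on opposite sides of 0. CDKN1A had 490 and 561 expected counts in the controls and 428 and 360 in BT-474 NRP-1 (log2 fold change -0.47, edgeR adjusted p = 0.149). CDKN2A had 30 and 46 against 42 and 106 (log2 fold change 0.90, edgeR adjusted p = 0.334). NDRG1, a stress-induced gene, had 4548 and 4999 expected counts in the controls and 5849 and 1613 in BT-474 NRP-1, so the NRP-1 libraries lay on both sides of the controls. CDH1, which encodes E-cadherin, had a mean of 131.9 FPKM and a log2 fold change of -0.15.

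BCAS3 and BCAS4 share with BCAS1 the name, given for their place in amplified segments, and BCAS4 shares its band, 20q13, as well. BCAS3 and BCAS4 are the partners of a gene fusion known from MCF-7 breast cancer cells. BCAS3 is a cytoskeleton and autophagy protein. It had 429 and 489 expected counts in the controls and 540 and 454 in BT-474 NRP-1 (14.4 and 16.3 FPKM against 17.9 and 14.9 FPKM). The groups overlapped, the log2 fold change was 0.06 (SE 0.15, 95% interval -0.32 to 0.43, edgeR adjusted p = 0.858), and its sign turned without control replicate 1 (-0.03) or NRP-1 replicate 2 (-0.08). BCAS4 had 235 and 172 expected counts in the controls and 133 and 152 in BT-474 NRP-1 (22.8 and 16.1 FPKM against 12.5 and 14.2 FPKM). Both NRP-1 libraries were below both controls, while the controls themselves were farther apart than the NRP-1 libraries. The log2 fold change of BCAS4 was -0.57 (SE 0.22, 95% interval -1.12 to -0.03, edgeR adjusted p = 0.202), and it was -0.32 without control replicate 1.

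CSE1L, the member nearest the start of the 20q13 interval, encodes the exportin that returns importin alpha to the cytoplasm after each round of nuclear import. It had 2748 and 2978 expected counts in the controls and 2822 and 5187 in BT-474 NRP-1, or 91.3 and 98.2 FPKM against 93.3 and 170 FPKM. NRP-1 replicate 2 lay within the control range and replicate 3 was far above it. The log2 fold change was 0.42 (SE 0.28, 95% interval -0.26 to 1.11, edgeR adjusted p = 0.414), and was -0.08 without NRP-1 replicate 3 and 0.79 without replicate 2. Its upstream 250 bases are given because NRP-1 replicate 3 stood apart at this gene and at ZNF217, in opposite directions (RefSeq, GRCh38.p14, chr20:49046062-49046311, plus strand, 5′ to 3′). Capitals mark GGGCGG and CCAAT on either strand, with 1 match of each, and the stretch is 60.8% G or C.
CSE1L upstream: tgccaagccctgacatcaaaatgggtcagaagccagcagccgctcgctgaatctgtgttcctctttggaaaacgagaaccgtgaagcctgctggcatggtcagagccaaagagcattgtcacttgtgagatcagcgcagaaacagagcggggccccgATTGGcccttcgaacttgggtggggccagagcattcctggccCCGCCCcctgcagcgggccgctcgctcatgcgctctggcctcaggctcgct
The ZNF217 stretch holds no CCAAT, but windows of BCAS3, PTPN1, BCAS4 and PFDN4 also hold it. Whether CCAAT has a part in any of these levels was not tested.

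The genes of the nuclear transport cycle that CSE1L serves were described as a list of 13 (importins alpha and beta, RAN and its regulators, NUP50 and XPO1). Of these, 12 had a log2 fold change above 0, where 51.8% of all tested genes did. Their median was 0.37, beside 0.02 over all tested genes, with 0.51 when NRP-1 replicate 2 was left out and 0.19 when replicate 3 was. None was called by edgeR, with 5 at an unadjusted edgeR p under 0.05, beside 22.9% of all tested genes. DESeq2 called KPNA2 and KPNB1, where it called 6.8% of the genes it gave an adjusted p. The genes were not tested as a set. KPNA2, an importin alpha that is also a proliferation marker, had 695 and 805 expected counts in the controls and 1709 and 3153 in BT-474 NRP-1. Its groups did not overlap and replicate 3 was again the higher, with a log2 fold change of 1.64 (SE 0.29, edgeR adjusted p = 0.0622, DESeq2 adjusted p = 1.54e-06). RAN, the GTPase that gives transport its direction, had 1806 and 1884 expected counts in the controls and 2319 and 3484 in BT-474 NRP-1 (log2 fold change 0.59, edgeR adjusted p = 0.165). The summed level of the 13 genes was 593 and 608 FPKM in the controls and 721 and 1098 FPKM in BT-474 NRP-1, the highest being replicate 3, as for CSE1L. RAN (386 FPKM) and KPNA2 (186 FPKM) were the largest parts of the replicate 3 sum. In replicate 2, RANGAP1, RCC1, RANBP1 and KPNA5 were below both controls in FPKM, so the rise was not shared by all of the list.

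PFDN4 encodes a subunit of prefoldin, which hands newly made actin and tubulin to the cytosolic chaperonin. It had 1481 and 1714 expected counts in the controls and 1727 and 1782 in BT-474 NRP-1, or 131 and 151 FPKM against 150 and 154 FPKM. The groups overlapped in FPKM, and the log2 fold change of 0.08 had a narrow 95% interval (-0.23 to 0.38, edgeR adjusted p = 0.759), turning to -0.018 without control replicate 1. In the other 5 prefoldin subunit genes the log2 fold change had a median of -0.16, 2 above 0 and 3 below, with 0 called by edgeR or DESeq2 and 1 at an unadjusted edgeR p under 0.05. Leaving out NRP-1 replicate 2 moved this median to -0.034, and leaving out replicate 3 moved it to -0.30. PFDN5 (mean 131.7 FPKM, log2 fold change -0.31) and PFDN2 (64.5 FPKM, -0.18) had the highest levels of these, both below 0.

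PTPN1 had the smallest standard error of the 10 genes. Its product PTP1B is a phosphatase on the endoplasmic reticulum that acts on the insulin receptor and on JAK kinases. It had 951 and 948 expected counts in the controls and 1057 and 1002 in BT-474 NRP-1, or 34.6 and 34.2 FPKM against 37.8 and 35.6 FPKM. The groups did not overlap, yet the difference was small, at a log2 fold change of 0.06 (SE 0.12, 95% interval -0.23 to 0.34, edgeR adjusted p = 0.807), or 0.0083 with NRP-1 replicate 2 left out and 0.098 with replicate 3 left out. A list of its substrates and its closest relative (INSR, IGF1R, EGFR, JAK2, TYK2, SRC and PTPN2) held 7 genes, of which 6 were tested, with a median log2 fold change of -0.25, 2 above 0 and 4 below. With NRP-1 replicate 3 left out the median was -0.043, and with replicate 2 left out -0.26. None was called by edgeR or DESeq2, and 1 had an unadjusted p under 0.05. The highest levels in that list were those of TYK2 (29.1 FPKM, log2 fold change 0.13) and PTPN2 (26.3 FPKM, 0.05).

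PTRH2 and VMP1 lie head to head on 17q23, with their starts separated by a stretch of 223 bases. PTRH2 encodes a mitochondrial peptidyl-tRNA hydrolase, and VMP1 an endoplasmic reticulum membrane protein needed for autophagosomes to form. The stretch between them is printed because both genes were lower in BT-474 NRP-1 and it precedes both (RefSeq, GRCh38.p14, chr17:59707431-59707653, plus strand, 5′ to 3′, reading towards VMP1). Capitals mark CCGGAAG, the core of sites of ETS-family factors, and TGACGT, the core of cyclic AMP response elements, on either strand. These motifs were chosen after the sequence was read.
PTRH2 to VMP1: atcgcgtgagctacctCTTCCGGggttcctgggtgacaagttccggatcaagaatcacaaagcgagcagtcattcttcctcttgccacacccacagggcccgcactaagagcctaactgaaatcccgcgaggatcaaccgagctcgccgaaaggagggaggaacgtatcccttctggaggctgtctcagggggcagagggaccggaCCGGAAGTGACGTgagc
It holds 2 CCGGAAG matches, 1 near the PTRH2 end and the other at the VMP1 end, where the single TGACGT match adjoins it. It has no GGGCGG and no CCAAT and is 58.7% G or C. CCGGAAG occurs in 10.3% and TGACGT in 7.98% of all RefSeq windows of 300 bases. These shares are no background for the stretch, since the motifs were picked from it and it is shorter. Whether any factor acts there was not tested.

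PTRH2 had 699 and 595 expected counts in the controls and 520 and 525 in BT-474 NRP-1, or 109 and 91.7 FPKM against 79.4 and 79.6 FPKM. Both NRP-1 libraries were below both controls and close to each other. The log2 fold change was -0.37 (SE 0.14, 95% interval -0.71 to -0.03, edgeR adjusted p = 0.193), and moved between -0.49 and -0.24 as single libraries were left out. VMP1 had 6792 and 7334 expected counts in the controls and 6600 and 4244 in BT-474 NRP-1, or 375 and 402 FPKM against 358 and 229 FPKM. Replicate 2 lay just under the controls and replicate 3 well below them. For VMP1 the log2 fold change was -0.44 (SE 0.22, 95% interval -0.98 to 0.10, edgeR adjusted p = 0.296), with -0.15 when NRP-1 replicate 3 was left out and -0.80 when replicate 2 was. The FPKM of VMP1 divided by that of PTRH2 was 3.45 and 4.38 in the controls and 4.51 and 2.87 in BT-474 NRP-1. The ratio was thus highest and lowest within the NRP-1 group, so the genes did not keep 1 proportion.

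The gene of miR-21 lies at the end of VMP1, and transcripts that run through VMP1 can contain it. Its mature product is given with the seed, bases 2 to 8, in capitals (RefSeq, GRCh38.p14, chr17:59841273-59841294, plus strand).
hsa-miR-21-5p: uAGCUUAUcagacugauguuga
MIR21 had 9 and 3 expected counts in the controls and 7 and 1 in BT-474 NRP-1, too few to be tested. Poly(A)-selected libraries do not measure mature microRNA, so these reads come from longer transcripts and cannot be told apart from those of VMP1.

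Of 14 tested genes that act with VMP1 and BCAS3 in autophagy, 5 had a log2 fold change above 0 and 9 below, with a median of -0.08 and a range from -0.40 to 0.14. The median was -0.23 with NRP-1 replicate 2 left out and -0.012 with replicate 3 left out. None was called by edgeR or DESeq2, and 1 had an unadjusted edgeR p under 0.05. ULK1, the kinase that starts autophagy, had the highest level (46.3 FPKM, log2 fold change -0.39, edgeR adjusted p = 0.144), and BECN1 was next (36.1 FPKM, 0.07). The 4 genes with peptidyl-tRNA hydrolase function listed beside PTRH2 had a median of -0.14 (-0.015 without NRP-1 replicate 2, -0.19 without replicate 3), 0 called by either tool and 0 at an unadjusted edgeR p under 0.05. MRPL58 (32.0 FPKM, -0.14) and MTRFR (30.8 FPKM, -0.15) were the highest of them.

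**Figure D3:**
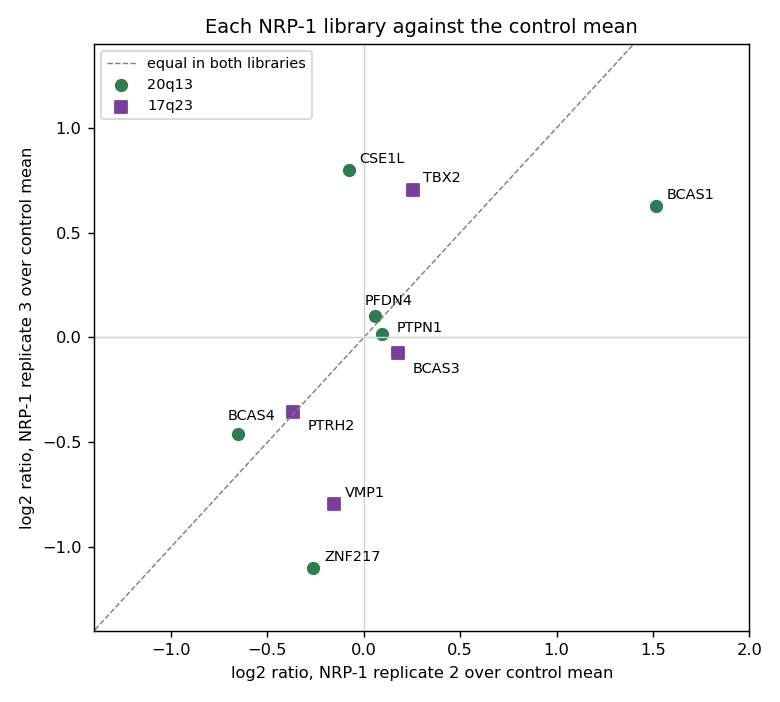
Each NRP-1 library against the mean of the 2 controls (log2 ratio of CPM, pseudocount 0.1), replicate 2 on the horizontal and replicate 3 on the vertical axis, with 20q13 genes as circles and 17q23 genes as squares. PTRH2, PFDN4 and PTPN1 lie near the dashed line of equal values, and BCAS1, CSE1L, ZNF217 and VMP1 lie far from it.

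The NRP-1 libraries stood farthest from each other at BCAS1, CSE1L, ZNF217 and VMP1. The log2 gap in CPM, replicate 3 over replicate 2, was -0.89 for BCAS1, -0.84 for ZNF217, -0.64 for VMP1 and 0.88 for CSE1L. Gaps of at least these sizes were seen for 10.7%, 12.04%, 19.1% and 10.9% of tested genes in the same order. The median gap of the members was 0.35 between the NRP-1 libraries and 0.18 between the controls, beside 0.28 and 0.14 over all tested genes. The NRP-1 gap exceeded the control gap in 6 of 10 members and in 69.9% of tested genes, so a wider NRP-1 spread was not particular to these genes. When NRP-1 replicate 2 was left out, edgeR called 6 members (BCAS1, BCAS4, CSE1L, PTRH2, VMP1 and ZNF217) among 36.8% of all tested genes. Without replicate 3 it called 4 (BCAS1, BCAS4, PTRH2 and ZNF217) among 28.2%. In these fits the lone NRP-1 library is assumed to vary like the controls, whereas the NRP-1 libraries were farther apart than the controls.

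**Figure D4:**
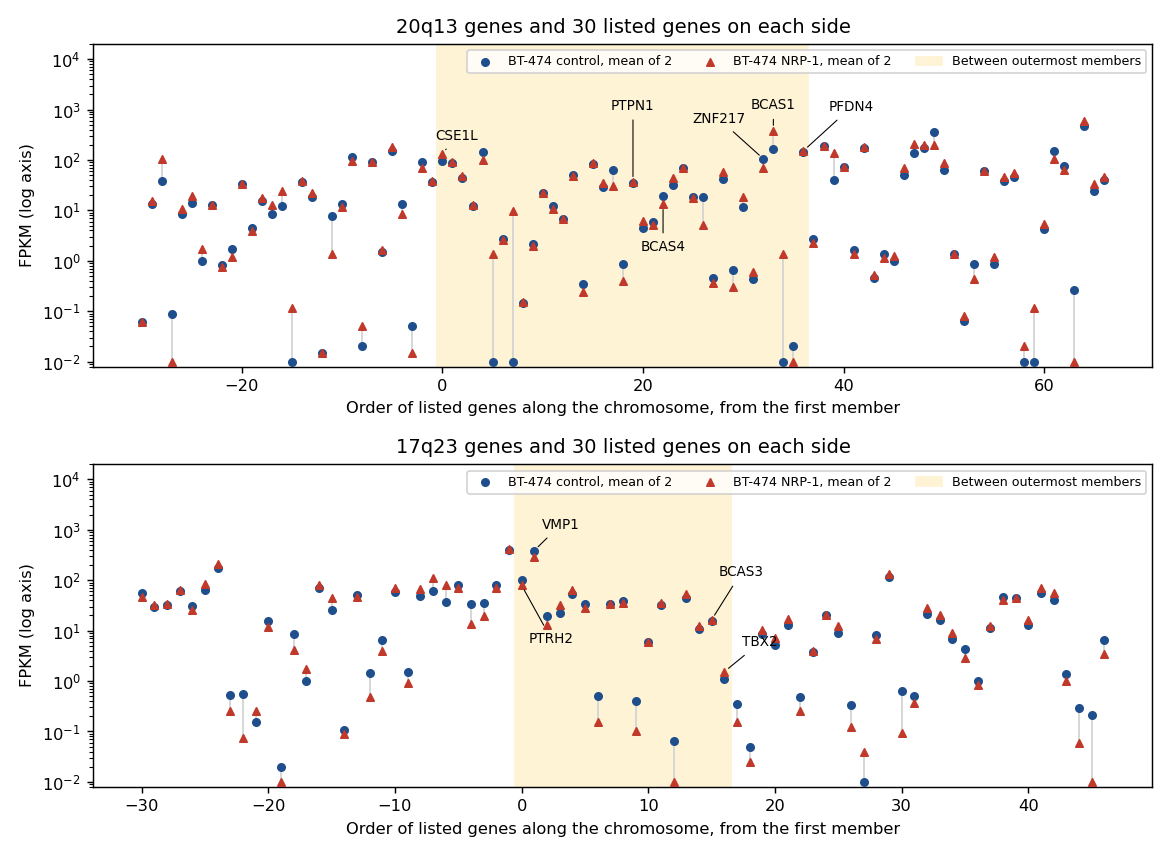
Mean FPKM (log axis, values under 0.01 drawn at 0.01) of the listed genes along 20q13 (top) and 17q23 (bottom) in RefSeq order, with circles for control and triangles for BT-474 NRP-1, each a mean of 2 libraries joined by a grey line. The shaded span runs between the outermost members, and BCAS1 is the member whose BT-474 NRP-1 mean lies farthest above its control mean.

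The other tested genes of each interval had log2 fold changes on both sides of 0. Of the 31 other listed genes between CSE1L and PFDN4, 24 were tested, with a median log2 fold change of -0.02 (10 above 0 and 14 below), and edgeR called 1, beside 1.09% of all tested genes. DESeq2 called 2, KCNG1 and CEBPB, beside 6.8%. The gene called by both was KCNG1, a modifier subunit of voltage-gated potassium channels, with 383 and 305 expected counts in the controls and 77 and 113 in BT-474 NRP-1. KCNG1 fell by 1.92 on the log2 scale (SE 0.25, edgeR adjusted p = 0.0440), and its adjusted p was 0.109 without the filter on low counts and 0.0834 and 0.0823 in limma. Leaving out control replicate 1 or 2 left no gene called, with an adjusted p in edgeR of 0.802 or 0.611 for KCNG1 and the same for NRP1. The 5 other genes with the highest level were ZFAS1, STAU1, UBE2V1, DPM1 and RNF114. ZFAS1, a long noncoding RNA that hosts small nucleolar RNAs, had 850 and 833 expected counts in the controls and 657 and 542 in BT-474 NRP-1 (log2 fold change -0.55, edgeR adjusted p = 0.101). STAU1, an RNA-binding protein gene next to CSE1L, had a log2 fold change of 0.04, and the ubiquitin conjugation gene UBE2V1, the glycosylation gene DPM1 and the ubiquitin ligase gene RNF114 had 0.00, 0.00 and -0.12.

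Between PTRH2 and TBX2, 9 of the 13 other listed genes were tested and 0 were called by edgeR or DESeq2, with 1 at an unadjusted edgeR p under 0.05. Their median log2 fold change was 0.10, with 5 above 0 and 4 below, and was -0.11 without NRP-1 replicate 2 and -0.043 without control replicate 1. RPS6KB1, which encodes the ribosomal protein S6 kinase and is a frequent candidate of this segment, had 2437 and 2351 expected counts in the controls and 3006 and 2937 in BT-474 NRP-1. Its groups did not overlap, and the log2 fold change was 0.25 (SE 0.12, edgeR adjusted p = 0.261). APPBP2, HEATR6 and USP32 had 0.19, -0.09 and 0.10. The microRNA gene MIR4737 stood among the 5 highest by FPKM (36.7) on 11 to 16 expected counts, its short length making each read weigh more. TUBD1, the tubulin gene beside VMP1 (named after its values were seen), had 431 and 427 expected counts in the controls and 450 and 802 in BT-474 NRP-1, replicate 3 alone being apart, as for CSE1L.

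The log2 fold changes of the members of a band did not share a sign, and edgeR called no member. The median log2 fold change was 0.07 over the 6 members on 20q13 and -0.16 over the 4 on 17q23, and both signs turned without NRP-1 replicate 3 (-0.011 and 0.012). In both bands members lay on either side of 0. ZNF217 and BCAS1, adjacent in the list, differed in opposite directions, and PTRH2 and VMP1 were below 0 while RPS6KB1, in the same interval, was above.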

How the data were processed

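Poly(A)-enriched RNA of 2 BT-474 control and 2 BT-474 NRP-1 libraries was sequenced and counted by the authors. Their processing notes name bcl2fastq 2.16, HISAT2 2.0.1, Bowtie2 2.2.5 and RSEM, and both GRCh38 and hg19 without a role. The deposited tables give the authors' expected counts from RSEM and FPKM, normalized by them for transcript length and depth, with 2 decimals. Another deposited table, holding group means, log2 ratios and probabilities that the authors computed, was not used. Expected counts (32.8% not whole) were rounded, filtered with filterByExpr to 14298 genes, scaled by TMM (factors 0.986 to 1.01) and tested with edgeR 4.0.16 (R 4.3.3) with Benjamini-Hochberg adjustment over all genes tested. SEs came from the F statistic. DESeq2 1.42.0 and limma 3.58.1 (log2(FPKM + 1) and log2(FPKM + 0.1), mean FPKM of at least 0.5) were alternatives, as were no TMM, no filter and leaving out each library. The fits were run on simulated data with changes larger than those of the members and the same spread in both groups. That simulation does not bear on changes as small as the members' or on the wider spread of the NRP-1 libraries. Intervals were in RefSeq gene order (GRCh38.p14), and 99.4% of gene IDs had a symbol there. The members and gene lists were chosen with earlier results of these data known. Besides the members, the text names interval genes and list genes past the threshold, the 5 highest per interval and the 2 highest per list by mean FPKM. Total expected counts of 8243595 to 8448926 per library limit low genes.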

Additional observations from a re-analysis of the deposited data

How the results depend on the processing

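Of 50 comparisons of a member's log2 fold change with another tool, scaling, filter or unit, 49 had the same direction and call, and BCAS1 passed it in DESeq2 (1 member called, where 0 were called otherwise). Leaving out libraries gave 0 to 6 members called and turned the sign of BCAS3 (-0.085 to 0.18, below 0 without control replicate 1, at -0.028, or NRP-1 replicate 2), PFDN4 (-0.018 to 0.18, below 0 without control replicate 1) and CSE1L (-0.078 to 0.79, below 0 without NRP-1 replicate 3). Of these 40 comparisons, 26 kept direction and call and 10 passed the threshold. Over all genes, edgeR called 156, 154 without TMM and 0 without the filter (3297 at an unadjusted p under 0.05), DESeq2 953, and limma 7 with pseudocount 1 and 3 with 0.1. Leaving out libraries gave 0 to 5414 calls, with 0 without control replicate 1 or 2 (782 and 1181 at an unadjusted edgeR p under 0.05), 5414 without NRP-1 replicate 2 and 4159 without replicate 3. The median log2 fold change of the members was -0.038 to 0.096 with libraries left out. That of the 20q13 interval (-0.02) became 0.018 without TMM and 0.020 and 0.021 in limma, and -0.086 to -0.016 with libraries left out. That of the 17q23 interval (0.10) became -0.095 with no filter, which adds its low genes, and -0.11 to 0.10 with libraries left out. The members' median percentile within a library was 95.3 by FPKM and 91.9 by expected count. Among genes of at least 1 FPKM, the median level was 20.04 FPKM in the 20q13 interval, 32.2 FPKM in the 17q23 interval, and 32.8 and 28.0 FPKM in their flanks. With flanks of 15 genes a side it was 28.8 and 10.1 FPKM. The 20q13 interval was below its flank and the 17q23 interval above its flank in each of these settings, and the members' median of 88.9 FPKM was above all of them. No paired analysis was possible because the groups share only replicate number 2. The depth limits TBX2 and MIR21, with 22 to 51 and 1 to 9 expected counts.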

Other observations

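Of the listed genes flanking the intervals, 30 on each side, 46 were tested on 20q13 and 49 on 17q23. On 20q13 edgeR called 3 and DESeq2 7, and on 17q23 edgeR called 1 and DESeq2 6, where edgeR called 1.09% and DESeq2 6.8% of all genes. The genes named here were chosen after their values were seen. On 20q13, NCOA5, a nuclear receptor coactivator gene, rose with 334 and 331 expected counts in the controls and 650 and 668 in BT-474 NRP-1 (log2 fold change 0.93, edgeR adjusted p = 0.0444). SLC13A3, a dicarboxylate transporter gene, fell by 2.56 on the log2 scale (edgeR adjusted p = 0.0440). MTRNR2L3 fell by 0.88 on the log2 scale (edgeR adjusted p = 0.0444), but it is nearly identical in sequence to mitochondrial ribosomal RNA and its reads may be shared with it. On 17q23, GDPD1, a glycerophosphodiester phosphodiesterase gene, fell by 1.27 on the log2 scale (edgeR adjusted p = 0.0440). Without the filter on low counts these 4 genes had adjusted p values of 0.106 to 0.113 in edgeR, and of 0.802 and 0.611 without control replicate 1 or 2. DESeq2 alone called AURKA, UBE2C, BMP7 and STX16 on 20q13 and ERN1, PRR11, RNF43, SKA2 and TSPOAP1 on 17q23. Of these, the mitotic kinase gene AURKA had 676 and 865 expected counts in the controls and 1588 and 3579 in BT-474 NRP-1 (log2 fold change 1.69, adjusted p = 0.0802 in edgeR and 3.8e-05 in DESeq2).

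CEBPB, a transcription factor gene of the 20q13 interval named after its values were seen, had 1044 and 1220 expected counts in the controls and 298 and 768 in BT-474 NRP-1. Its log2 fold change of -1.15 missed the threshold in edgeR (adjusted p = 0.174) and passed it in DESeq2 (adjusted p = 0.0280), and it was -1.98 without NRP-1 replicate 3 and -0.63 without replicate 2.

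The deposited mean transcript length of CSE1L was 3627 bases in both controls and 3582 and 3596 bases in NRP-1 replicates 2 and 3. Its reads were thus assigned to transcripts of more than 1 length in BT-474 NRP-1. BCAS4 had 1268 and 1301 bases in the controls and 1284 and 1285 bases in BT-474 NRP-1. BCAS3 had 3581 and 3584 bases in the controls and 3581 bases in both NRP-1 libraries. A varying length was therefore not particular to CSE1L or to BT-474 NRP-1.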
